A study of Homo sapiens with 19 samples.

Results

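MDA-MB-231 is a human breast cancer line, and sublines of it that colonise bone weakly or strongly in mice were compared here with the unselected parental line. Of the 19 arrays of the series, 8 were used: the 1 array of the parental line, the 3 weakly bone-metastatic lines 2293, 2295 and 2296, and the 4 strongly bone-metastatic lines 1833, 2274, 2268 and 2269. Arrays were chosen by their titles, and the comparison asked, gene by gene, which bone group departed from the parental level. Line 1833 was the original subline after a short culture, per the design text, and line 2296 carried the name 2297 in its cell line label. The labels name no treatment and no transgene for these lines. All were grown in culture in a serum-containing medium with selective drugs, which the labels do not name further, and each was measured on 1 array of total RNA taken before confluence. The parental group thus had no replicate. Differences from it are therefore given as values with the standard deviation (SD) over lines, with no p-value. The weak and strong comparisons shared that 1 parental array, so an error in it enters both. The remaining test, strong against weak lines, left out the parental array, apart from the filter on dim genes and the choice of probe set. Its p-values measure the spread between lines.

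Bone metastasis of breast cancer depends on tumour cells that resorb bone by driving osteoclasts. The secreted factors IL11 and CCN2 and the chemokine receptor CXCR4 are known, from work on sublines of this family, as genes of strongly bone-metastatic cells. Breast cancer cells of this line also make inflammatory cytokines under NF-kB, a transcription factor family that switches on chemokine and acute phase genes. They present antigens on class I and class II molecules of the major histocompatibility complex (MHC), whose class II genes share a promoter box and the coactivator CIITA.

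The deposited values were linear ratios with a common divisor for each probe set across these 8 arrays. Differences between arrays were taken as log2 of the ratios, and levels are given as scaled signals, the array signals behind the ratios after the authors' factor for each array. The 40th percentile of an array, 74.2 to 84.1 scaled signal units, served as its floor, and a gene at the floor on one side gives a difference that is a lower bound. VIM, CD44, AXL, ANXA1, S100A4, CAV1 and MSN, markers of this mesenchymal-like line, lay above the floor on all 8 arrays. CD44 was called lower in the weak lines (-1.08 ± 0.26). Without line 2295 its difference was -0.97 and no longer called. With a common trimmed mean it was -0.20, after which another of its 6 probe sets was the brightest. PTPRC, ITGAL, VWF, CDH5 and TIE1, markers of leukocytes and endothelium, lay under the floor on all 8. Other markers of those lists lay above it, LAPTM5, CD53 and PECAM1 on all 8 and CD2 and FCER1G on 7. Of 8 luminal breast markers, listed as low in this line, ERBB2, GATA3, EPCAM and TFF1 lay above the floor on all 8 arrays. ESR1 lay above it on 6, FOXA1 on 2 and CDH1 on 1, and PGR lay under it on all 8. GATA3 had 763 on the parental array and 154 to 370 in the weak lines, where it was called lower. As a median over probe sets its weak difference was -0.78 and not called. Spike-in controls averaged 11.31 to 11.69 on the log2 scale, with 11.48 on the parental array, and the GAPDH 3′ to 5′ signal ratio was 0.870 to 1.09.

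Both bone groups departed from the parental array for a similar number of genes. A gene was called when its group mean lay over 2-fold from the parental value and every line of the group lay on that side. Of 9004 genes tested, 184 (2.04%) were called higher and 317 (3.52%) lower in the weak lines, and 174 (1.93%) higher and 280 (3.11%) lower in the strong lines. The genes called fell into 354 called in the weak lines alone (121 higher, 233 lower), 307 in the strong lines alone (117 higher, 190 lower), 131 in both the same way (52 higher, 79 lower) and 16 in opposite directions. The median difference over all genes was -0.04 for the weak and -0.01 for the strong lines, and the median SD over lines was 0.19 and 0.25. The balance of higher and lower calls depended on the scaling between arrays. Of the calls, 36.7% were higher in the weak lines and 38.3% in the strong lines as deposited, against 50.4% and 49.3% with arrays centred on their median, 56.6% and 47.7% with a common trimmed mean, which moved the medians to 0.10 and 0.06, and 45.4% and 42.1% after quantile normalisation.

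**Figure D1:**
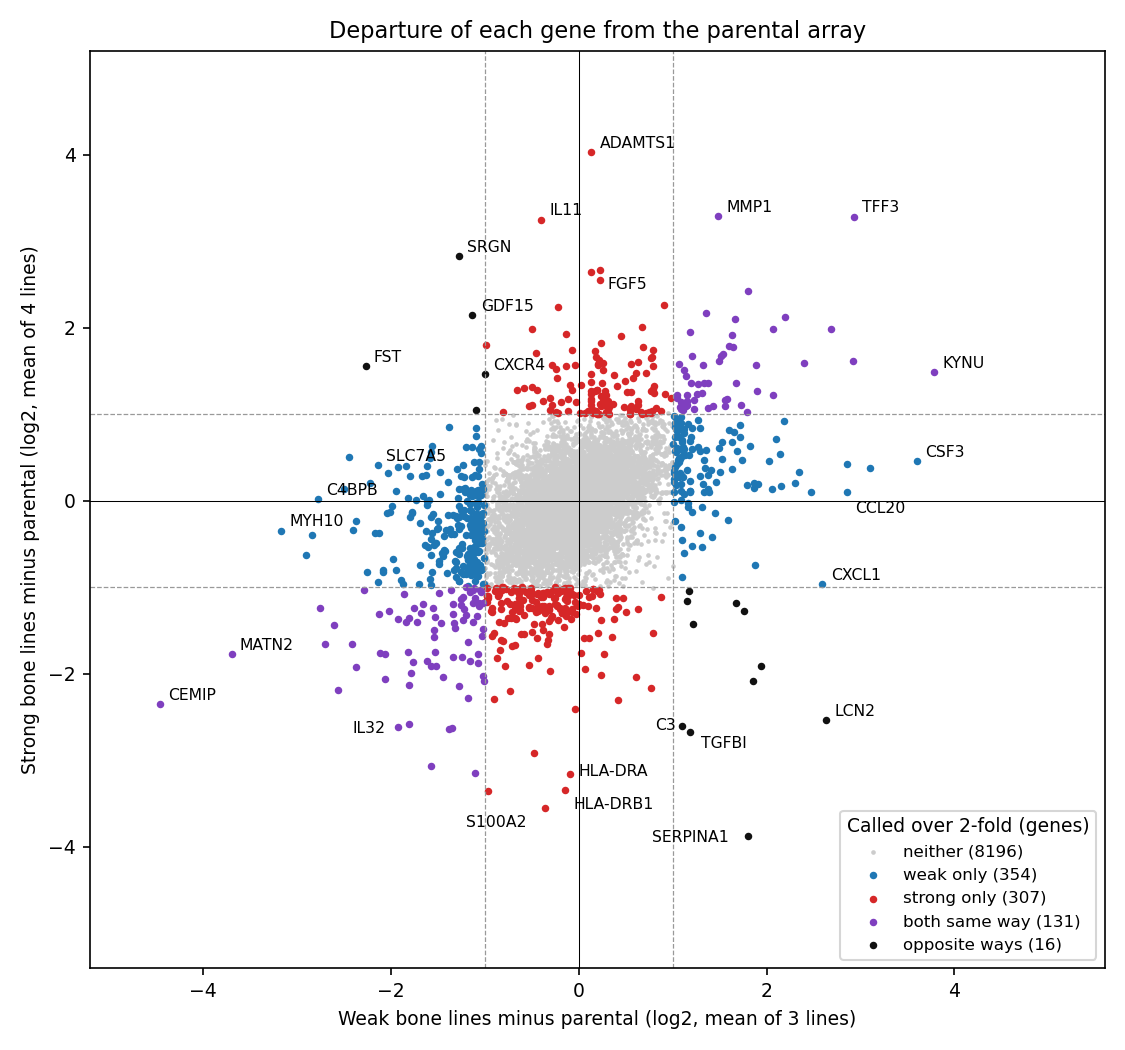
Each point is 1 of 9004 genes, with the mean log2 difference of the 3 weak lines from the parental array on the horizontal axis and that of the 4 strong lines on the vertical axis; dashed lines mark 2-fold and colours give the call. Inflammatory genes such as CSF3, CCL20 and CXCL1 lie to the right near the horizontal axis, ADAMTS1 and IL11 lie near the vertical axis, and the 16 genes in black lie in the quadrants where the groups moved apart.

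Of 16 genes called on opposite sides of the parental array, those with the largest differences included the acute phase genes SERPINA1, LCN2, SERPINA3 and C3. In 11 of them the weak lines were higher and the strong lines lower, and in 5 the reverse. All 16 also passed the test of strong against weak lines, limma with Benjamini-Hochberg adjustment, in which 870 (9.66%) and 657 (7.3%) of all genes were called higher and lower in the strong lines. The call rule already sets the groups apart without overlap on the same arrays, so passing is not independent support. SERPINA1, the secreted inhibitor of neutrophil elastase, had a scaled signal of 1373 on the parental array, 5017, 5139 and 4267 in weak lines 2293, 2295 and 2296, and 109, 107, 55.6 and 32.4 in strong lines 1833, 2274, 2268 and 2269. In the rest of the text values by line keep this order. The groups did not overlap, with 2 of 4 strong arrays at the floor, and the differences from parental were 1.80 ± 0.15 (SD, n = 3) and -3.88 ± 0.25 (SD, n = 4). Strong and weak lines differed by -5.68 (SE 0.17, limma adjusted p = 1.8e-07), or 51.3-fold with those arrays at the floor. LCN2, an iron-siderophore carrier of the acute phase, had 613 on the parental array, 4296, 3330 and 3837 in the weak lines, and 73.7, 167, 109.7 and 51.2 in the strong lines. It lay 2.63 ± 0.18 above the parental value in the weak lines and -2.54 ± 0.49 from it in the strong lines (strong minus weak -5.17, limma adjusted p = 7.47e-06), with 2 strong arrays at the floor. SERPINA3, an inhibitor of cathepsin G, had 328 on the parental array, 2057, 1676 and 571 in the weak lines and 29.9, 89.8, 96.2 and 37.7 in the strong lines. Weak line 2296 was thus the least changed of the weak lines, and the differences were 1.94 ± 0.99 and -1.91 ± 0.11. With 2 strong arrays at the floor, the strong difference of SERPINA3 is a bound and its SD reflects the floor. C3, the central complement protein, had 483 on the parental array, 1037, 699 and 1522 in the weak lines, and was at the floor in all 4 strong lines. Its differences were 1.10 ± 0.56 and -2.60 or beyond, at least 6.06-fold lower in the strong lines; without line 2296 the weak difference was 0.82 and no longer called.

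TGFBI, a TGF-beta-induced matrix adaptor, had 3655 on the parental array, 9242, 8311 and 7490 in the weak lines and 781, 337, 792 and 522 in the strong lines. Its differences were 1.19 ± 0.15 and -2.67 ± 0.58 (strong minus weak -3.86, limma adjusted p = 4.16e-05). JUP, the plakoglobin of desmosomes and adherens junctions, lay on the same sides, with 1.76 ± 0.31 and -1.27 ± 0.22. The remaining 4 of the 11 genes, named after their values were seen, were PPL, a desmosome plaque protein, BIK, a pro-apoptotic BCL2 relative, the receptor GPRC5C and the chondroitin sulfate enzyme CSGALNACT1. Their weak differences ran from 1.15 to 1.68 and their strong ones from -1.43 to -1.04, with all 4 strong arrays at the floor for PPL and GPRC5C. SPANXB1, a cancer-testis gene whose near-identical copies cannot be told apart by this probe set, had 610 on the parental array, 1129, 1048 and 8997 in the weak lines and 280, 87.9, 119 and 146 in the strong lines. Line 2296 carried most of its weak difference of 1.85 ± 1.76, which was 0.84 without that line.

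In the reverse direction stood FST, the antagonist of activin, and SRGN, the core protein of an intracellular and secreted proteoglycan. FST had 1853 on the parental array, 321, 390 and 452 in the weak lines and 6445, 6943, 4792 and 4157 in the strong lines, so the parental value lay between groups that did not overlap. Its differences were -2.27 ± 0.25 and 1.56 ± 0.35 (strong minus weak 3.83, limma adjusted p = 1.2e-05). SRGN had 658 on the parental array, 214, 224 and 417 in the weak lines and 4088, 4489, 6626 and 3899 in the strong lines, differences of -1.28 ± 0.54 and 2.83 ± 0.35. GDF15, a stress-induced cytokine of the TGF-beta family, had 568 on the parental array, 200.5, 200.8 and 432 in the weak lines and 2262, 3159, 2978 and 1887 in the strong lines. The weak difference of GDF15, -1.13 ± 0.64, was -0.95 without line 2293 and -0.95 without line 2295, and its call was then lost, as it was with a common trimmed mean (-0.99). AGR2, an endoplasmic reticulum disulfide isomerase, was named after its values were seen as the remaining gene of this direction beside CXCR4, with -1.09 ± 0.67 and 1.05 ± 0.34.

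**Figure D2:**
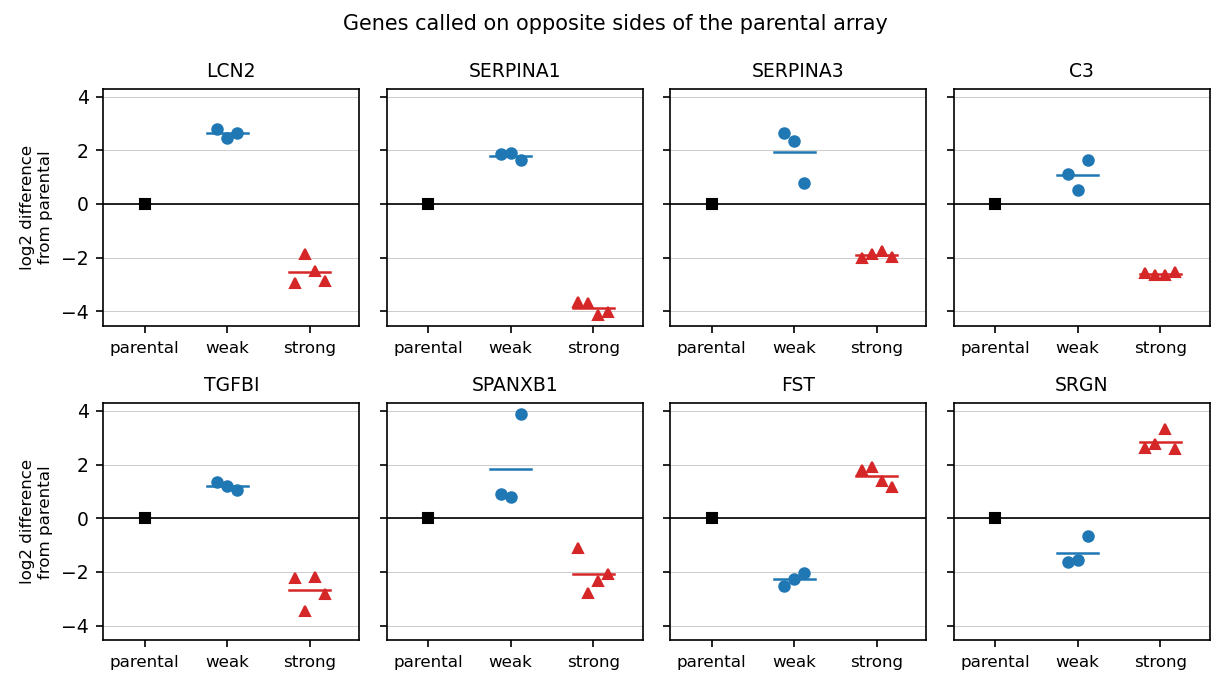
For the 8 genes with the largest strong minus weak difference among those called in opposite directions, each point is 1 line's log2 difference from the parental array (black square at 0), with circles for the 3 weak lines, triangles for the 4 strong lines and bars for group means. Weak and strong lines lie on opposite sides of 0 for every gene shown, from 2.63 and -2.54 in LCN2 to -1.28 and 2.83 in SRGN.

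Genes known from bone-metastatic sublines of this line departed in the strong lines. Of 11 listed genes, SPP1 and FHL1 did not pass the filter on dim genes, which kept a gene above the floor on the parental array or on at least 2 bone arrays, and ADAMTS1 and FGF5 passed it through the strong lines alone. The 9 that passed were called higher in the strong lines, with a median difference of 2.66, against 1 higher and 3 lower in the weak lines, with a median of -0.22. These counts describe the genes that passed. Of all genes, 1.93% were called higher in the strong lines, and 2.04% higher and 3.52% lower in the weak lines. The list was drawn up from work on lines of this family, 1833 among them, so its direction is not independent evidence. ADAMTS1, a metalloproteinase that cleaves matrix proteoglycans, was at the floor on the parental array and in all 3 weak lines and had 1091, 1502, 1537 and 847 in the strong lines. It was at least 16.3-fold higher than parental in the strong lines (4.03 ± 0.41). IL11, a cytokine that favours osteoclast formation, had 209 on the parental array, 96.7, 142 and 287 in the weak lines and 1971, 2861, 2457 and 1128 in the strong lines. The parental value lay within the range of the weak lines, at a weak difference of -0.41 ± 0.80, and 3.25 ± 0.59 below the strong lines. MMP1, interstitial collagenase, had 518 on the parental array, 747, 1132 and 3586 in the weak lines and 5460, 8750, 2718 and 5113 in the strong lines. Here the groups overlapped, since weak line 2296 exceeded strong line 2268, and the weak difference of 1.48 ± 1.17 was 0.83 without line 2296. The strong difference was 3.29 ± 0.69, and strong and weak lines differed by 1.81 (limma adjusted p = 0.0379). FGF5, a fibroblast growth factor, was at the floor on the parental array and on 2 of 3 weak arrays and had 468, 520, 576 and 347 in the strong lines, at least 6.32-fold above parental. DUSP1, a phosphatase that switches off MAP kinases, had 615 on the parental array, 575, 749 and 864 in the weak lines and 3603, 5207, 3124 and 2895 in the strong lines. Its strong difference was 2.55 ± 0.38 and its weak difference 0.23 ± 0.30.

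CXCR4, the receptor for the marrow chemokine CXCL12, had 322 on the parental array, 153, 152 and 178 in the weak lines and 1097, 1771, 504 and 626 in the strong lines. The strong difference was 1.46 ± 0.82. The weak difference was -1.003 ± 0.13 in the brightest of 3 probe sets but 0.13 as a median over them. Its call was lost in 7 of 16 alternative settings, among them those without line 2293 (-0.97) or line 2295 (-0.96). The 16 include those without 1 of the 4 strong lines, which could not change a weak call.

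CCN2, a matricellular protein that YAP and TEAD factors switch on, had 1233 on the parental array, 871, 1216 and 1125 in the weak lines and 5272, 5994, 7503 and 4779 in the strong lines. The parental level was near that of the weak lines (-0.22 ± 0.25), and the strong lines were 2.23 ± 0.28 higher (strong minus weak 2.45, limma adjusted p = 7.25e-05). Its promoter is shown because it carries the letters GGAATG bound by TEAD factors. The 250 bases before the start site (RefSeq, GRCh38.p14, chr6:131951373-131951622, minus strand) read as follows, with matches to GGAATG, searched on both strands, in capitals; they began 169, 104 and 95 bases before the start.
CCN2: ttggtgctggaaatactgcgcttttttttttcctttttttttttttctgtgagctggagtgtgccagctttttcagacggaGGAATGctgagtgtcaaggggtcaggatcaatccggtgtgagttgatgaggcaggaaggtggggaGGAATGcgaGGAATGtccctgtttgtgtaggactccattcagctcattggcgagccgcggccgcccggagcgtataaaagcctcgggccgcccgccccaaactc
A match to GGAATG stood in 5 of the 13 promoters found for the measured YAP target genes (38.5%) and in 11.9% of the 27305 promoters of the same length in the table. The matches were in CCN2, ANKRD1, TGFB2, FOXF2 and PTPN14. FOXF2 and PTPN14 were called in neither group, and F3, described below, held none. A match describes letters and does not show a bound site.

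**Figure D3:**
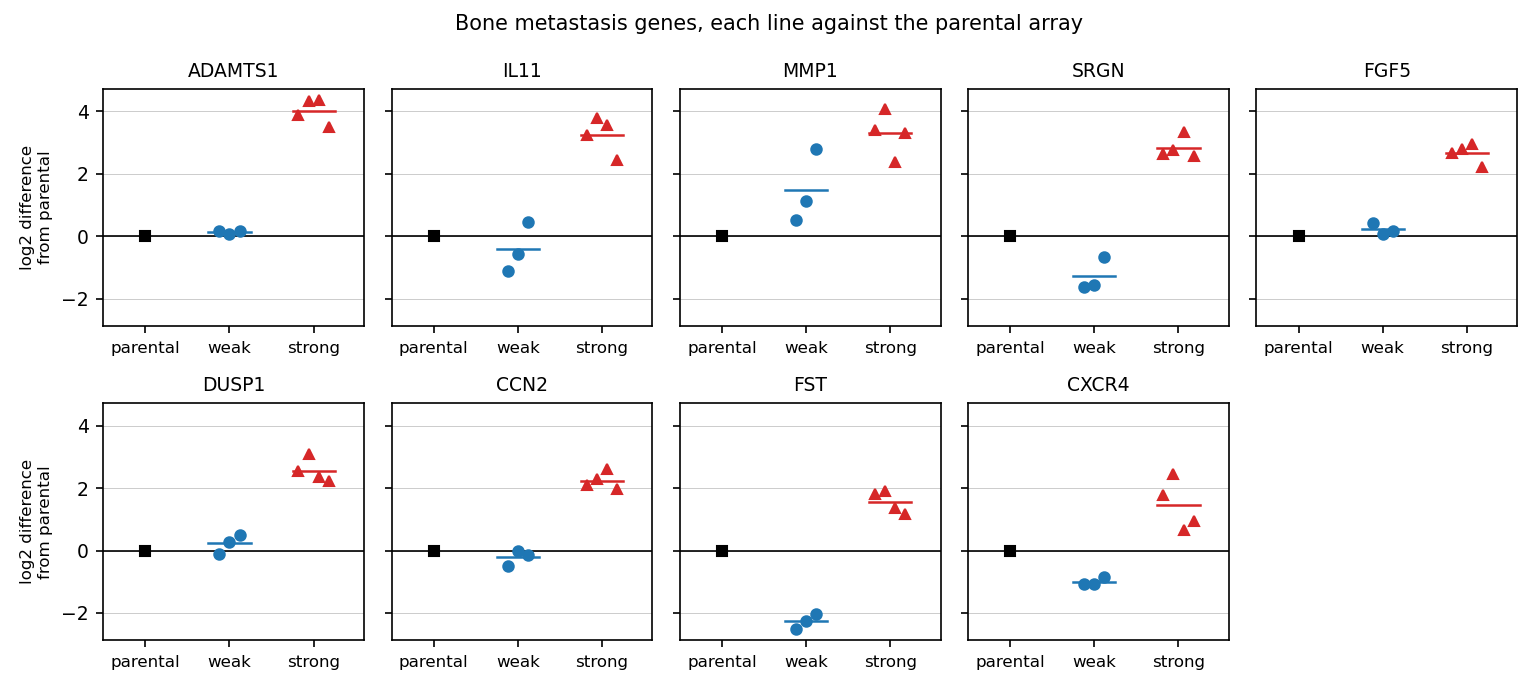
For the 9 measured bone metastasis genes, each point is 1 line's log2 difference from the parental array (black square at 0), with circles for weak lines, triangles for strong lines and bars for group means. Strong lines lie above 0 for all 9 genes, with means from 1.46 in CXCR4 to 4.03 in ADAMTS1, while weak means run from -2.27 in FST to 1.48 in MMP1.

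Among the YAP target genes, CCN2 included, more were called in the weak lines, and downward. Of 18 measured, 1 was called higher and 6 lower in the weak lines and 3 higher in the strong lines. The shares over all genes were 2.04%, 3.52% and 1.93%. Between strong and weak lines, 10 passed the test as higher in strong lines and 1 as lower, against 9.66% and 7.3% of all genes. F3, tissue factor, had 2993 on the parental array, 499, 561 and 696 in the weak lines and 2198, 3258, 2279 and 2570 in the strong lines. The strong range of F3 enclosed the parental value, at -0.23 ± 0.26, and the weak lines were -2.37 ± 0.24 from it. TGFB2 had 1094, then 254, 332 and 269, then 627, 671, 667 and 561; the weak difference was -1.95 ± 0.20, in the brightest of 4 probe sets that did not all give the same sign. GADD45A, a DNA damage and stress protein also listed as a p53 target, had 1034 on the parental array, 317, 333 and 323 in the weak lines and 1268, 1867, 1428 and 737 in the strong lines. It was 3.19-fold lower in the weak lines, while its strong difference of 0.28 ± 0.56 was within the line spread. ANKRD1 and CRIM1 were called higher in the strong lines beside CCN2, at 1.25 ± 0.26 and 1.03 ± 0.11.

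Chemokines and cytokines of the NF-kB group were called higher in the weak lines, and other members of the group lower in the strong lines. Of 21 measured genes, 7 were called higher and 2 lower in the weak lines, and none higher and 6 lower in the strong lines. Over all genes these shares were 2.04% and 3.52%, and 1.93% and 3.11%. The limma test called 13 lower in strong than weak lines, against 7.3% of all genes. CXCL3 and CCL20, which are in these counts, passed the filter on dim genes through the weak lines alone. CSF3, the granulocyte growth factor, was at the floor on the parental array and had 1019, 691 and 1040 in the weak lines and 51.7, 182, 87.8 and 30.8 in the strong lines. It was at least 12.1-fold higher than parental in the weak lines (3.60 ± 0.33). CXCL1, a neutrophil chemokine, had 665 on the parental array, 4054, 3895 and 4080 in the weak lines and 166, 736, 302 and 364 in the strong lines. The 3 weak lines lay close together at 2.59 ± 0.04, and the strong lines scattered around a lower level at -0.96 ± 0.88, with line 2274 above the parental value. CCL20, which attracts dendritic cells and lymphocytes, was at the floor on the parental array and in all 4 strong lines and had 434, 506 and 704 in the weak lines, at least 7.23-fold higher. CXCL8, another neutrophil chemokine, had 4651, then 11529, 14847 and 12337, then 2846, 8829, 5452 and 6281, a weak difference of 1.46 ± 0.19 and a strong one of 0.22 ± 0.68.

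The promoters of CXCL1 and CCL20 are shown because both chemokines departed in the weak lines and both carry the NF-kB consensus. The stretches lie at chr4:73869143-73869392 and chr2:227813592-227813841 (RefSeq, GRCh38.p14, plus strand), with consensus matches on either strand in capitals.
CXCL1: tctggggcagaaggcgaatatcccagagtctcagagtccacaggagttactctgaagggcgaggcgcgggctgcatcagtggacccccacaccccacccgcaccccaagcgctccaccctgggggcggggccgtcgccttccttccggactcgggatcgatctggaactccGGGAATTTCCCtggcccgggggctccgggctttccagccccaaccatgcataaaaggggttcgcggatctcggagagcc
CCL20: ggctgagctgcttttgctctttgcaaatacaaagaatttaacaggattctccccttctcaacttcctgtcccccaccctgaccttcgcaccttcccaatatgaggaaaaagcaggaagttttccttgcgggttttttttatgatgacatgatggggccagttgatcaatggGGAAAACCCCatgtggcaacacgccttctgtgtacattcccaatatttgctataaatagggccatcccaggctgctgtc
In CXCL1 there were 2 overlapping matches, 1 on each strand, starting 79 and 78 bases before the start site, and in CCL20 there was 1, at 79 bases. Of 17 promoters found for the measured genes of this group, 11 held a match (64.7%), against 9.57% of the 27305 promoters. The calls did not follow the matches gene by gene: CXCL8, IL1A and IL1B were called higher in the weak lines and held none, and VCAM1 and IL32 held 2 each and were called lower in both groups. VCAM1, an adhesion molecule for leukocytes, had 316 on the parental array and lay at -1.79 ± 0.32 and -1.99, with 2 of 3 weak and all 4 strong arrays at the floor. IL32, an inflammatory cytokine, had 488 on the parental array and lay at -1.93 ± 0.65 and -2.62, with 1 weak and all 4 strong arrays at the floor. Among further members, chosen after their values were seen, IL1A and IL1B were called higher in the weak lines at 2.15 ± 0.48 and 1.86 ± 1.23, with 675, 752 and 3090 for IL1B, so line 2296 carried most of it. IL6 had 2067 on the parental array, 2885, 2580 and 4411 in the weak lines and 606, 1986, 570 and 816 in the strong lines. It was called lower in the strong lines at -1.26 ± 0.83, with line 2274 near the parental value.

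Levels of 2 leukocyte markers and 1 endothelial marker were higher in the same weak lines, and their part in these results was not tested. LAPTM5 had 1623 on the parental array, 6427 to 6710 in the weak lines and 1724 to 2788 in the strong lines. HCLS1 had 118 on the parental array and 217 to 273 in the weak lines, and PECAM1 107 and 291 to 494. Over all genes, 2.04% were called higher and 3.52% lower in the weak lines, and 3.11% lower in the strong lines. Of 20 leukocyte markers 12 were tested, with 2 called higher and CD14 called lower in the weak lines (-1.01 ± 0.60, and -0.68 without line 2295). The log2 of their summed signal was 11.57 on the parental array, 12.98 to 13.05 in the weak lines and 11.46 to 12.01 in the strong lines. LAPTM5 held most of that sum in the weak lines, and the median difference over the 12 genes was -0.08 to 0.27 by weak line. CD53 lay above the floor on all 8 arrays, CD2 and FCER1G on 7 and CD3E, CD14 and ITGAM on 6. PTPRC, ITGAL, CORO1A, TYROBP and CD37 lay under the floor on all 8 arrays. Of 15 endothelial and stromal markers 7 were tested, with PECAM1 called higher in the weak lines and COL1A2 lower in both groups (-1.10 ± 0.38 and -1.12 ± 0.27; weak -0.97 without line 2296). Their log2 summed signal was 10.04, 10.30 to 10.58 and 9.88 to 10.29, and VWF, CDH5 and TIE1 under the floor on all 8.

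Acute phase and complement genes held 5 members called higher and 1 lower in the weak lines and 7 called lower in the strong lines, of 16 measured. Among all genes, 2.04% were called higher and 3.52% lower in the weak lines and 3.11% lower in the strong lines. Beside the 4 described above, SLPI, a leukocyte protease inhibitor, was called higher in the weak lines at 2.10 ± 0.35, and CFB, complement factor B, lower in the strong lines at -1.72 ± 0.25. C4BPB, a chain of the C4b-binding protein that restrains complement, was lower in the weak lines. It had 581 on the parental array, 59.3, 88.8 and 53.7 in the weak lines and 638, 879, 363 and 596 in the strong lines. Its weak difference was -2.78, with 2 of 3 arrays at the floor, and its strong difference 0.02 ± 0.53.

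Most of the measured MHC genes were called lower in the strong lines. Of 23 measured MHC class I and II genes, none was called higher in either group. Of them 5 were called lower in the weak and 14 lower in the strong lines, against 3.52% and 3.11% of all genes. The medians were -0.57 and -1.30. The 14 held class II genes and also HLA-F, HLA-G and the immunoproteasome subunits PSMB8, PSMB9 and PSMB10, while the class II genes HLA-DQB1 (-0.52 ± 0.12) and HLA-DOA (-0.45 ± 0.47) were not called. HLA-DRA, the class II alpha chain, had 2409 on the parental array, 2369, 1989 and 2461 in the weak lines and 271, 264, 306 and 241 in the strong lines. The weak lines enclosed the parental value (-0.09 ± 0.16), and the strong lines lay 8.95-fold below it (-3.16 ± 0.14; strong minus weak -3.07, limma adjusted p = 7.47e-06). HLA-DRB1, its partner chain, had 3618, then 3120, 3097 and 3617, then 368, 274, 527 and 301, differences of -0.15 ± 0.13 and -3.35 ± 0.42; the probe set may also take signal from near-identical DRB genes. HLA-DPA1 had 1706 on the parental array, 840, 624 and 1268 in the weak lines and 114, 163, 242 and 171 in the strong lines, so the weak lines stood between the parental array and the strong lines (-0.97 ± 0.51 and -3.36 ± 0.45). HLA-DPB1 was lower in both groups, at -1.11 ± 0.26 and -3.15 ± 0.20, with 2 of 4 strong arrays at the floor, and its weak call was lost under 2 of 3 other scalings. Further members of the presentation pathway were chosen after their values were seen. CD74, the invariant chain, had 4777, then 6344, 6081 and 4590, then 876, 1171, 1677 and 1117, and HLA-DMA, a peptide exchange factor, had 1499, then 1167, 1064 and 969, then 481, 470, 559 and 599. Their strong differences were -2.02 ± 0.39 and -1.52 ± 0.17. CIITA, the class II coactivator, had 178 on the parental array, with 1 weak and 2 strong arrays at the floor. It was called lower in the strong lines at -1.02 ± 0.22 in the brighter of 2 probe sets, which disagreed in sign, and lay at -0.78 ± 0.33 in the weak lines.

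The HLA-DRB1 promoter is shown for the Y box, CTGATTGG, of class II promoters (RefSeq, GRCh38.p14, chr6:32589849-32590098, minus strand), with the match, 49 bases before the start, in capitals.
HLA-DRB1: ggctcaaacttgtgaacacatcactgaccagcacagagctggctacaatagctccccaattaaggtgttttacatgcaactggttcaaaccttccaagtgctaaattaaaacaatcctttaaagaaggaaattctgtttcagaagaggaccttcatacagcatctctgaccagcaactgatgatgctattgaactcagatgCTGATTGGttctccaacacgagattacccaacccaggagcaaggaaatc
Of 19 promoters found for the measured MHC genes 7 held CTGATTGG on either strand (36.8%), against 3.98% of the 27305 promoters. Among the class II genes, HLA-DRB1, HLA-DMA and HLA-DQB1, which was not called, held these exact letters. HLA-DPA1, HLA-DPB1, HLA-DMB and HLA-DOA did not, nor did CD74, so the calls did not follow the matches. Class I genes held it too. Of these HLA-F was called lower in both groups (-1.08 ± 0.05 and -1.77 ± 0.18), while HLA-B, HLA-C and B2M were called in neither: HLA-B lay at -0.86 ± 0.20 and -0.99 ± 0.34, and B2M, the class I light chain, at -0.06 ± 0.12 and -0.32 ± 0.18.

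Other genes called lower in the strong lines included members of the matrix and epithelial lists and S100A2. S100A2, a calcium-binding protein of epithelial cells, had 5932 on the parental array, 5299, 4352 and 4318 in the weak lines and 689, 479, 418 and 477 in the strong lines, 11.7-fold below parental (-3.55 ± 0.31) against a weak difference of -0.36 ± 0.17. FN1, fibronectin, had 4915, then 5547, 5774 and 4289, then 1505, 1394, 1677 and 755, differences of 0.07 ± 0.23 and -1.95 ± 0.52. KRT7, a simple epithelial keratin, had 2860, then 2922, 2794 and 3010, then 928, 907, 821 and 734, differences of 0.02 ± 0.05 and -1.76 ± 0.15. For these 3 genes the parental array sat with or near the weak lines. RARRES2, the chemoattractant chemerin, had 666 on the parental array and 260, 257 and 168 in the weak lines and was at the floor in all 4 strong lines, differences of -1.57 ± 0.36 and -3.07. TNFSF10, the death ligand TRAIL, had 2791, then 1164, 1082 and 966, then 246, 686, 597 and 404, so both groups were lower, at -1.39 ± 0.14 and -2.64 ± 0.66. Over 34 matrix genes, 2 were called higher and 7 lower in the weak lines and 9 lower in the strong lines. For 26 epithelial genes the counts were 3 and 2 in the weak and 2 and 6 in the strong lines. The shares over all genes were 2.04% and 3.52% in the weak and 1.93% and 3.11% in the strong lines. KRT7, ITGB4 (-1.59 ± 0.37) and the opposite-moving JUP were among the epithelial falls. COL5A1 was lower in both groups, at -1.005 ± 0.18 and -2.08 ± 0.25; its weak call sat at the 2-fold line and was lost without line 2295 (-0.93), without line 2296 (-0.98) and under each of the 3 other scalings.

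The strong lines also had rises outside the bone metastasis list. NAP1L3, a nucleosome assembly protein relative, was at the floor on the parental array and all 3 weak arrays and had 460, 483, 577 and 357 in the strong lines, at least 6.23-fold higher. It passed the filter on dim genes through the strong lines alone. ST3GAL6, a sialyltransferase, had 95.5, then 209, 159 and 172, then 382, 607, 498 and 381, with the weak lines between the parental array and the strong lines (0.90 ± 0.20 and 2.26 ± 0.33). Immediate early and MAPK feedback genes had 4 of 25 called higher in the strong lines and 2 higher and 1 lower in the weak lines. Over all genes the shares were 1.93%, 2.04% and 3.52%. The medians for this list were 0.53 and 0.23. EGR1, a zinc finger factor induced by growth factors, was at the floor on the parental array and had 115, 142 and 126 in the weak lines and 261, 290, 208 and 194 in the strong lines. Outside that list, ADM, the vasodilator peptide adrenomedullin, had 907, then 1706, 1243 and 1470, then 2918, 4219, 3308 and 2308, and ODC1, the first enzyme of polyamine synthesis, was called higher at 1.58 ± 0.19. INHBB, a subunit of activin B, was at the floor on the parental and all 3 weak arrays and had 251, 207, 204 and 167 in the strong lines, at least 2.76-fold higher.

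Other genes called lower in the weak lines lay nearer the parental level in the strong lines. MYH10, non-muscle myosin heavy chain IIB, had 1281 on the parental array, 93.2, 139 and 220 in the weak lines and 979, 1013, 1042 and 997 in the strong lines. It was 9.03-fold lower in the weak lines (-3.17 ± 0.62), while the strong lines lay at -0.35 ± 0.04. EFEMP1, a fibulin of the matrix, had 3913, then 633, 732 and 352, then 2874, 3111, 3032 and 2912, differences of -2.84 ± 0.56 and -0.39 ± 0.05. EDIL3, an integrin-binding secreted protein, lay at -2.91 ± 0.44 and -0.63 ± 0.39. DKK1, a secreted Wnt inhibitor known to restrain osteoblasts, had 8229, then 2137, 2181 and 2106, then 9057, 11603, 9461 and 6218, differences of -1.94 ± 0.03 and 0.11 ± 0.38. SNAI2, a repressor of epithelial genes, was lower in the weak lines at -2.14 ± 0.06 and lay at -0.94 ± 0.17 in the strong lines. Of 26 actin and myosin genes, 4 were called lower in the weak lines and 2 in the strong lines, against 3.52% and 3.11% of all genes. Among those lower in the weak lines were CNN3 (-1.55 ± 0.10) and LIMA1 (-1.29 ± 0.21). PLAC8, a small cysteine-rich protein, had 3647, then 630, 521 and 911, then 5025, 5866, 6158 and 3959, and was called in the weak lines at -2.45 ± 0.41.

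Several genes of sterol synthesis were called lower in the weak lines. Of 21 measured, 6 were called lower and none higher there and 1 lower in the strong lines. The shares called lower over all genes were 3.52% and 3.11%. The median of the list was -0.75 in the weak and -0.38 in the strong lines. INSIG1, the sterol sensor that retains SREBP factors, had 1586 on the parental array, 226, 367 and 214 in the weak lines and 477, 652, 806 and 466 in the strong lines, lower in both groups (-2.60 ± 0.43 and -1.44 ± 0.38). SCD, the stearoyl-CoA desaturase, had 3147, then 629, 1132 and 485, then 1913, 3295, 3635 and 1503, differences of -2.17 ± 0.63 and -0.38 ± 0.61. IDI1, of the mevalonate pathway, lay at -1.23 ± 0.28 and -0.18 ± 0.37. DHCR7, the last enzyme of the pathway, lay at -1.14 ± 0.36 and -0.86 ± 0.15, and its weak call was lost under 2 of 3 other scalings.

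The sterol regulatory element TCACNCCAC stood in 1 of 19 promoters found for these genes (5.26%), against 0.875% of the 27305. That promoter was of SREBF2, which was called in neither group, and INSIG1, SCD, IDI1 and DHCR7 held none.

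Some genes of the list of amino acid and unfolded protein stress were called lower in the weak lines. For 28 measured, the median was -0.25 there and 0.09 in the strong lines. In the weak lines 4 were called lower, against 3.52% of all genes, and in the strong lines none in either direction. The limma test called 10 higher and 2 lower in strong than weak lines, against 9.66% and 7.3% of all genes. SLC7A5, the transporter of large neutral amino acids, had 3287 on the parental array, 739, 785 and 718 in the weak lines and 5455, 4956, 4866 and 2763 in the strong lines. The weak lines were 4.40-fold lower (-2.14 ± 0.07), and the strong lines lay on both sides of the parental value. CTH, which makes cysteine, had 247, then 87.1, 49.1 and 77.3, then 334, 448, 352 and 277, a weak difference of -1.58 ± 0.08 with 2 of 3 arrays at the floor. SLC7A11, the cystine transporter, lay at -1.09 ± 0.44 and 0.84 ± 0.65, and its weak call was lost without line 2293 (-0.86) and under 2 of 3 other scalings. PSAT1, of serine synthesis, lay at -1.09 ± 0.65 in the weak lines and at -0.72 without line 2296, which lost the call, as did each of the 3 other scalings. The amino acid response element TGATGNAA stood in 4 of 25 promoters found (16%), against 3.19% of the 27305. These were ATF3, ASNS, CHAC1 and HERPUD1, which were called in neither group. SLC7A5, CTH and PSAT1 held none, and no promoter was found for SLC7A11.

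TGF-beta response genes had 5 of 18 called higher and 1 lower in the weak lines and 2 higher and 1 lower in the strong lines. Over all genes the shares were 2.04% and 3.52% in the weak and 1.93% and 3.11% in the strong lines. The medians for this list were 0.61 and -0.22. ID1, an inhibitor of basic helix-loop-helix factors, had 1685, then 4874, 4601 and 5838, then 857, 1606, 1913 and 1638, differences of 1.59 ± 0.18 and -0.23 ± 0.51. LTBP1, which binds latent TGF-beta, was higher in both groups, at 1.58 ± 0.21 and 1.17 ± 0.47, although without strong line 2268 the second value was 0.97 and not called. Among the activin and BMP genes, FST and GDF15 lay on opposite sides of parental and ID1 was higher in the weak lines. Of 24 measured, 1 was called higher and 2 lower in the weak and 3 higher and 1 lower in the strong lines. INHBB, 1 of those 3, passed the filter on dim genes through the strong lines alone.

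The 131 genes called the same way in both groups cannot be told apart from a parental array that differs from all its sublines, since that array is shared. Of these, 25 also passed the test between strong and weak lines. CEMIP, a hyaluronan-degrading protein, had 1981 on the parental array, 96.6, 91.4 and 51.4 in the weak lines and 427, 876, 175 and 351.1 in the strong lines. It lay at -4.46 ± 0.11 in the weak lines, with 1 array at the floor, and at -2.35 ± 0.96 in the strong lines. MATN2, a matrix filament protein, was at the floor in all 3 weak lines, at least 12.97-fold below the parental signal of 1054, and had 436, 449, 225 and 205 in the strong lines. GPC1, a cell surface heparan sulfate proteoglycan, lay at -2.56 ± 0.22 and -2.19 ± 0.43, with 2 weak and 1 strong array at the floor, and NNMT, nicotinamide N-methyltransferase, at -2.38 ± 0.58 and -1.93 ± 0.61. DAAM1, a formin of Wnt planar polarity, had 828, then 218, 206 and 174, then 266, 203, 187 and 156, with -2.06 in each group. L1CAM, a neural adhesion molecule, lay at -2.70 ± 0.45 and -1.66 ± 0.33, and EPHX1, LY6E and CTSS were also lower in both.

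TFF3, a trefoil peptide, was at the floor on the parental array and had 809, 1201 and 185 in the weak lines and 604, 753, 989 and 607 in the strong lines. It was at least 7.61-fold and 9.74-fold higher, and without weak line 2296 the weak difference of 2.93 ± 1.42 was 3.73. TFF1, its relative, was also called higher in both, at 1.63 ± 1.18 and 1.91 ± 0.33, with line 2296 again lowest of the weak lines (2.31 without it). CST1, a salivary cystatin with close relatives that the probe set may not separate, had 3077, then 17392, 24360 and 18329, then 8399, 14812, 17778 and 10015. PRSS3, mesotrypsin, and its pseudogene PRSS3P2 were called higher in both groups, at 1.81 ± 0.94 and 2.42 ± 0.43 and at 1.64 ± 0.81 and 1.77 ± 0.31; their sequences are near-identical. RAB38, GLRX and SERPINF1 were also higher in both, at 2.19, 2.07 and 1.67 in the weak lines and 2.13, 1.98 and 2.10 in the strong lines. KYNU, an enzyme of tryptophan breakdown, had 258 on the parental array, 3537, 3677 and 3458 in the weak lines and 484, 1068, 904 and 579 in the strong lines. It was higher by 3.79 ± 0.04 in the weak lines, against 1.49 ± 0.53 in the strong lines (strong minus weak -2.30, limma adjusted p = 0.0005). Further large rises in the weak lines were MISP, a mitotic spindle protein, at 2.92 ± 0.07, and PTPRN2 and LINC01711, both at the floor on the parental array and at least 7.24-fold and 8.58-fold higher. PTPRN2 passed the filter on dim genes through the weak lines alone.

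Of 18 genes listed for lung metastasis of this line, 15 were measured. Of the 15, 9 were called higher and 2 lower in the weak bone lines, and 6 higher and 2 lower in the strong bone lines. Their medians were 1.10 and 0.70. The list holds KYNU, CXCL1 and ID1, described here, and MMP1, which the bone list holds too. Hypoxia and glycolysis genes had medians of 0.13 and -0.13. The limma test called 9 of 29 lower and 2 higher in strong than weak lines, against 7.3% and 9.66% of all genes. ALDOC and ENO2 were called higher in the weak lines, at 1.29 ± 0.17 and 1.09 ± 0.08, and ADM in the strong lines. Proteases and their inhibitors gave 3 higher and 2 lower in the weak and 5 higher and 5 lower in the strong lines, of 33. Among those higher in the strong lines, ADAMTS1 passed the filter on dim genes through the strong lines alone. CTSB, cathepsin B, was picked out after its values were seen, with 4026 on the parental array, 7708, 6986 and 6219 in the weak lines and 1222, 1424, 1813 and 1198 in the strong lines, and was called lower in the strong lines at -1.53 ± 0.28. Osteolysis and bone matrix factors had 11 genes measured, of which JAG1, a Notch ligand, was higher in both groups (1.26 ± 0.39 and 1.23 ± 0.39; strong 0.97 as a median over 3 probe sets, not called). CSF1, the macrophage growth factor, lay at -0.83 ± 0.27 and -1.61 ± 0.40 in the brightest of 4 probe sets; the median over them gave -0.87 in the strong lines, not called. Notch and Wnt genes gave 2 higher and 2 lower in the weak and 2 higher and 1 lower in the strong lines, of 21. Over all genes the shares were 2.04% and 3.52% in the weak and 1.93% and 3.11% in the strong lines. FZD1, a Wnt receptor, was called higher in the weak lines at 1.42 ± 0.10 and lay at -0.42 ± 0.41 in the strong lines, and FZD7 was lower in both, at -2.13 ± 0.18 and -1.31 ± 0.12.

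None of 33 mitosis genes was called in either group, where 5.56% of all genes were called in the weak and 5.04% in the strong lines. A list of this size would hold few calls at those shares. The mitosis medians were -0.19 and -0.04, and CDC20 lay at -0.76 ± 0.27 and 0.29 ± 0.27. Of 35 DNA replication genes, 2 were called lower in each group, where 3.52% and 3.11% of all genes were; MCM6, a subunit of the replicative helicase, was lower in both, at -1.03 ± 0.32 and -1.56 ± 0.29, with its weak call lost under the 3 other scalings and without line 2296 (-0.84). Of 20 ribosome biogenesis and MYC target genes 1, ODC1, was called, in the strong lines. Of 16 mesenchymal genes SNAI2 was called in the weak and FN1 in the strong lines. These counts are near the shares over all genes. Of 29 interferon-stimulated genes, 3 were called higher and 1 lower in the weak and 1 higher and 2 lower in the strong lines. Over all genes, 2.04% were called higher and 3.52% lower in the weak lines, and 1.93% higher and 3.11% lower in the strong lines. IFI6 was higher in both (1.38 ± 0.29 and 1.36 ± 0.28), ISG20, an RNA exonuclease, in the weak lines at 2.18 ± 0.34, and GBP2, a guanylate-binding protein, was lower in the strong lines at -1.54 ± 0.39. Among 17 p53 targets, GDF15, GADD45A and PLK2 were called lower in the weak lines and GDF15 higher in the strong lines, against 3.52% and 1.93% of all genes.

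**Figure D4:**
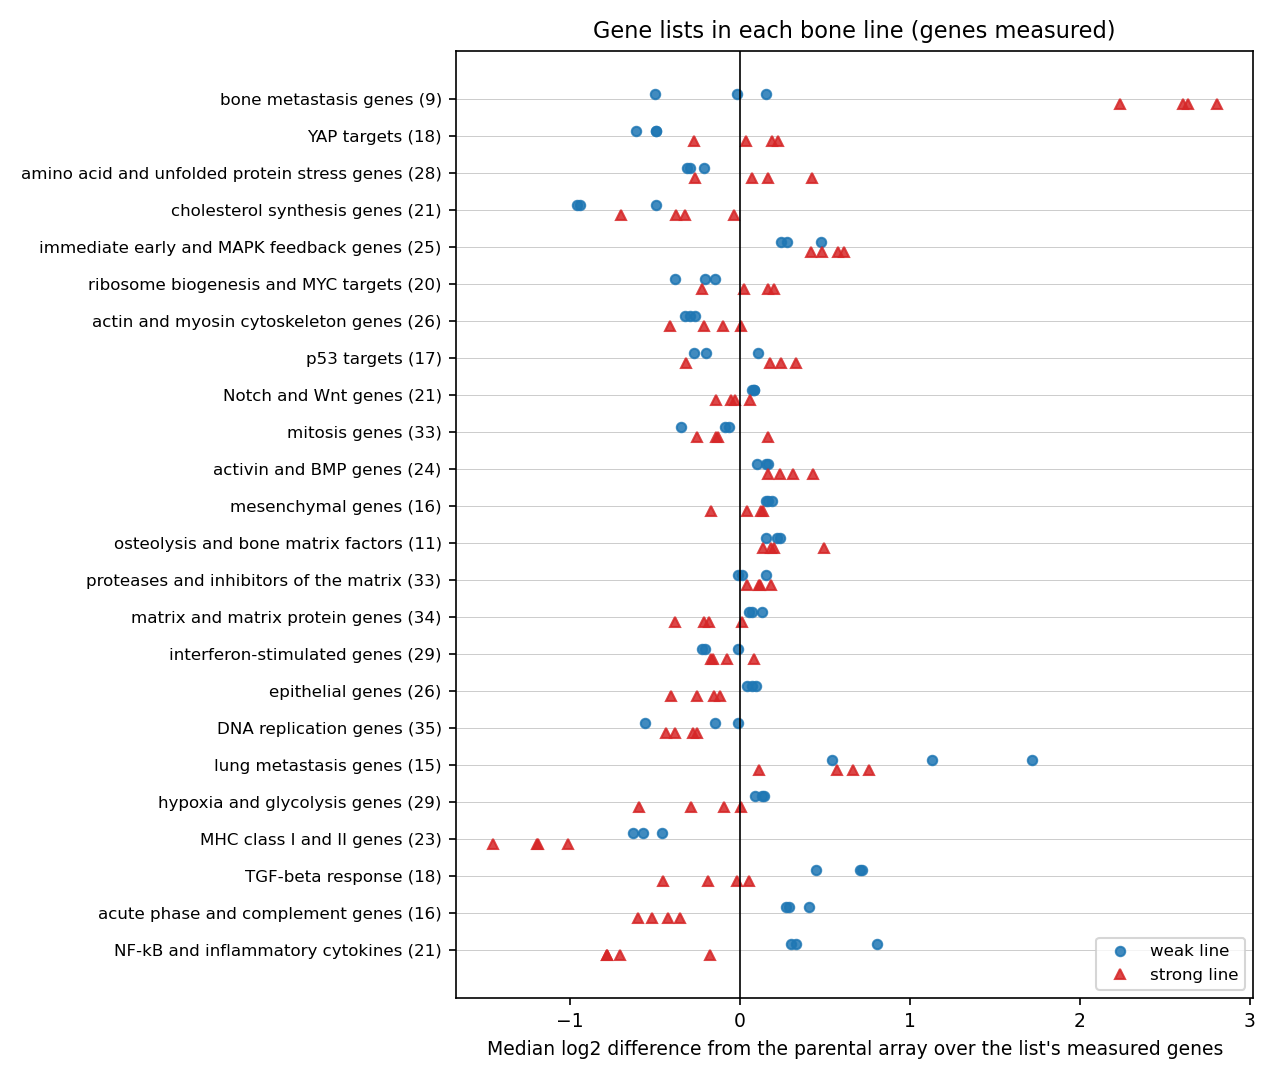
Each row is a gene list, with the number of genes measured, and each point is 1 line's median log2 difference from the parental array over that list; circles are weak lines and triangles strong lines. The strong lines stand at 2.24 to 2.81 for the bone metastasis genes and the weak lines at -0.50 to 0.15, while for the NF-kB cytokines the weak lines stand at 0.30 to 0.81 and the strong lines at -0.78 to -0.17.

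The parental array was then placed on genes called between strong and weak lines. That test did not use the parental values beyond the filter on dim genes and the choice of the brightest probe set. Both steps can favour genes that are high on the parental array. Of 9004 genes, 1527 passed limma at an adjusted p under 0.05, 870 higher and 657 lower in the strong lines, and the parental value lay nearer the weak mean for 750 and nearer the strong mean for 777. Without line 2269 the higher count was 1319, and without line 2293, 2295 or 2296 it was 526, 520 or 554; the lower count without line 2293 or 2295 was 371 or 374. Of the 526 genes that passed and differed over 2-fold, 353 had the parental value between the group means, 76 beyond the weak mean and 97 beyond the strong mean, with a median position of 0.56 on a scale from 0 at the weak to 1 at the strong mean. The parental value lay within the range of the weak lines for 70 of these genes, within that of the strong lines for 143 and within neither for 313. For the 307 higher in the strong lines, the parental value was nearer the strong mean in 192 (62.5%). For the 219 lower in the strong lines, it was nearer the weak mean in 129 (58.9%). In both directions the parental array thus more often stood on the side of the higher group. These shares were 55.7% to 58.1% and 52.3% to 55.0% under the other 3 scalings. With the median over probe sets they were 61.3% and 54.8%, and with no filter 61.9% and 60%.

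**Figure D5:**
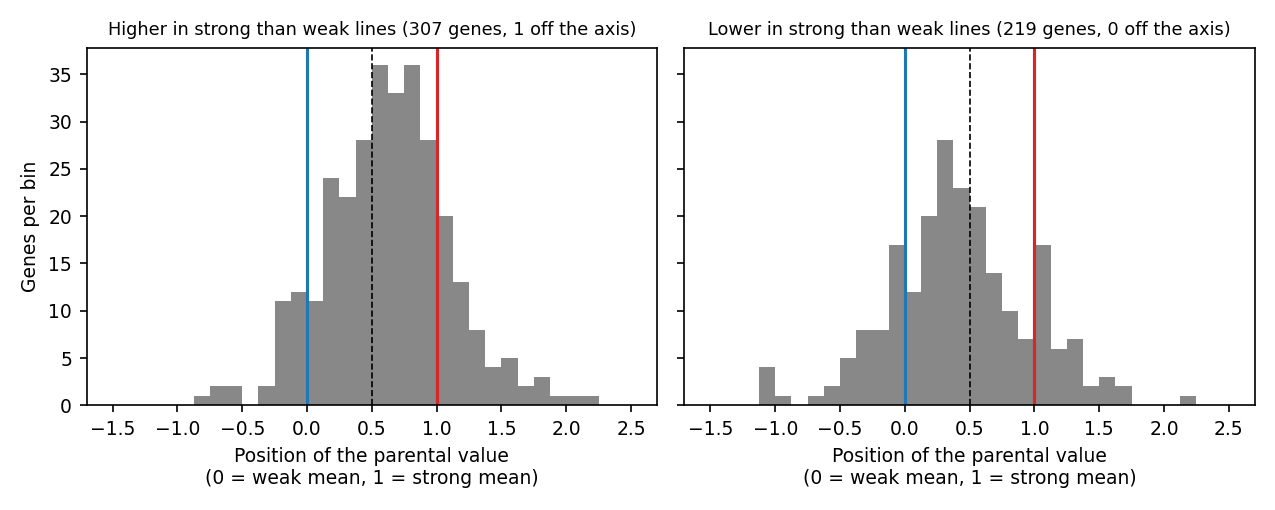
Histograms of where the parental value lies for the 526 genes that passed limma and differed over 2-fold between strong and weak lines, on a scale with the weak mean at 0 (blue) and the strong mean at 1 (red); the dashed line marks the midpoint. The left panel holds the 307 genes higher in strong lines, with a median of 0.64 and 1 gene off the axis, and the right panel the 219 lower in strong lines, with a median of 0.39.

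Single lines differed over 2-fold from the parental array in 604, 668 and 778 genes for weak lines 2293, 2295 and 2296, and in 595, 632, 676 and 955 genes for strong lines 1833, 2274, 2268 and 2269. Line 2269 stood apart, with 292 genes higher and 663 lower and a median difference of -0.15 over all genes, and its array had the lowest of the authors' factors, 0.830. Without it, 219 genes were called higher and 248 lower in the strong lines, in place of 174 and 280. Its values kept the direction of the other strong lines in the genes described as called in that group, as the call rule requires.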

How the data were processed

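Total RNA of each line was labelled as biotinylated cRNA and hybridised to 1 Affymetrix array with 22283 probe sets. The authors deposited linear ratios, each probe set's signal relative to a reference value; no source used here gives the image analysis, the normalisation or the reference. A common divisor for each probe set was found across the 8 arrays used, with 91.6% of probe sets at a median of 1 in 10 arrays, these among them. Signals, stored in steps of 0.1, were recovered from the deposited ratios for 22274 probe sets (99.96%), up to the factor of each array (0.830 to 1.06). Spike-in and housekeeping signals were read from the same arrays.

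The analysis took log2 of the deposited ratios, with signals under the array's 40th percentile set to it, and kept a gene above that floor on the parental array or on at least 2 of 7 bone arrays. Of the probe sets, 19071 had 1 gene symbol, 1043 several and 2169 none, and the probe set with the highest mean stood for a gene. Of 11963 genes named, 9004 were tested. Calls against parental needed a group mean over 2-fold away with every line on that side. Strong and weak lines were compared with limma 3.58.1 in R 4.3.3 (lmFit and eBayes on the 7 bone arrays, Benjamini-Hochberg at 0.05); tables were made with pandas 2.3.3 and numpy 2.4.6. The fit was tested on simulated data. The number of arrays limits the precision.

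Named genes were, for each bone group, the 10 called genes with the largest rise and the 10 with the largest fall, the 8 with the largest difference among those called opposite ways, the 8 in each direction with the largest smaller difference among those called the same way in both, the 8 in each direction with the largest limma difference, all bone metastasis genes, up to 4 called members of each other list (up to 2 where none was called) and the marker genes. AGR2, PPL, BIK, GPRC5C, CSGALNACT1, ANKRD1, CRIM1, IL1A, IL1B, IL6, SLPI, CFB, CD74, CIITA, HLA-DMA, HLA-B, HLA-C, HLA-DOA, HLA-DQB1, HLA-F, HLA-G, PSMB8, PSMB9, PSMB10, CXCL3, B2M and CTSB were added after their values were seen. The members and lists were chosen with earlier results of these data known. Alternatives were 3 other scalings, 2 other floors, a pseudocount of 16, 2 other filters, the median over probe sets, other call rules, a fit of 14 arrays with the lung-metastatic groups, and leaving out each bone line. After each rescaling the filter and the brightest probe set were taken anew. Promoters came from RefSeq, GRCh38.p14.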

Additional observations from a re-analysis of the deposited data

Results flagged for a closer look

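For 16 genes the weak lines were called on one side of the parental array and the strong lines on the other. All 16 passed the test between strong and weak lines (limma, Benjamini-Hochberg), which the call rule all but fixes, since it sets the groups apart on the same arrays. The 8 with the largest difference are given here. The strong minus weak difference was -5.68 for SERPINA1, -5.17 for LCN2, -3.93 for SPANXB1, -3.86 for TGFBI, -3.84 for SERPINA3 and -3.70 for C3, and 4.10 for SRGN and 3.83 for FST. Among these 8 the limma adjusted p ran from 1.8e-07 for SERPINA1 to 0.00474 for SPANXB1.

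Single strong lines stood far from the other 3 in 4 of 129 groups examined, where chance picks out about 1 in 20. CSF3 lay at 1.29 above the parental value in line 2274. EGFR lay at 0.19 in line 2269, below the other strong lines, and SLC7A5 at -0.25 in the same line, also below them. TEK lay at 0.83 in line 2268.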

How the results depend on the processing

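Of 159 calls of named genes against the parental array, 132 were kept in every alternative setting run for them, at most 16, and 27 were lost in at least 1. These settings did not include the other call rules. Those that left out a line of the other bone group could not change a call. Several counts of calls moved by over 1.5 times with the floor, the scaling or the call rule. With no floor, 500 genes were higher and 546 lower in the weak lines, 426 and 519 in the strong lines, with 622 called in the weak lines alone, 521 in the strong lines alone and 401 in both the same way. With the floor at the 20th percentile these were 503, 531, 452, 501, 606, 525 and 407. With log2(signal + 16), 377 were higher in the weak lines, 344 in the strong lines and 298 called in both. With a common trimmed mean, 205 were lower in the weak lines. When every line had to be over 2-fold, 94 and 180 were called in the weak lines, 76 and 118 in the strong lines, 220 and 140 in one group alone, 49 in both and 5 in opposite directions. Over 1.5-fold, the counts were 658, 1099, 653, 988, 1106, 990, 593 and 58, in the same order.

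Leaving out 1 bone line at a time gave 184 to 215 higher and 317 to 360 lower in the weak lines, 163 to 219 and 248 to 317 in the strong lines, 346 to 422 and 301 to 345 in one group alone, 126 to 139 in both and 14 to 17 in opposite directions. The limma test gave 520 to 1319 higher and 371 to 716 lower in strong lines, with the parental value nearer the weak mean for 413 to 1025 and nearer the strong mean for 466 to 1010.

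As a median over probe sets, CXCR4 turned to 0.13 in the weak lines and CSF1 to 0.028 between strong and weak lines; the cause was not tested. Among single named genes, 4134 values against parental stayed within 1 SD over lines and 337 moved further; of the strong minus weak values, 2270 kept direction and side of the threshold, 94 lost it and 12 gained it. No paired analysis was possible because the labels give line names and no replicate numbers shared between groups.

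The single parental array sets every difference from it, and its own error is unknown. Genes near the floor give bounds. Levels are relative within an array, so a shift of all genes together cannot be seen.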
